A study of Homo sapiens with 8 samples.

Results

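NBEA, ZFHX4, JAM3, ADIRF and RASEF are 5 genes chosen for a clear shift in human cutaneous squamous carcinoma cells that carried a hairpin against BMI1. They are 5 of the 14884 genes that could be named on the array, and each was read from its 1 named probe set. Whether the same 5 genes also shifted with a hairpin against RING1B, the partner of BMI1 in the same complex, or against EZH2 was then examined. The genes were selected on the measured shBMI1 minus shGFP difference, so these values are given as a description, without a test.

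The cells are labelled SCC13, an established line from a human skin squamous cell carcinoma. In all, 4 hairpin groups of 2 arrays each were profiled. The shBMI1, shRING1B and shEZH2 cells carried hairpins against the corresponding Polycomb gene, and the shGFP cells carried a control hairpin against a jellyfish protein that human cells do not make. Every group therefore carried a hairpin. Each title starts with SCC13 except for the shEZH2 pair, whose titles start with SCCL3, while all 8 records name SCC13 as the line. Whatever that other prefix marks cannot be told apart from the effect of the shEZH2 hairpin, which touches every shEZH2 value below.

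All values are RMA expression on the log2 scale, so that a difference of 1 is a doubling. EZH2 mRNA was 8.95 and 9.03 on the shEZH2 arrays, against 9.83 and 9.97 on the shGFP arrays (log2 difference -0.91, adjusted p = 0.0183 by limma). BMI1 and RNF2, which encodes RING1B, had no named probe set and were not analysed here, so these knockdowns were not checked. Of 10 keratinocyte markers, the 4 that were named (KRT5, KRT14, DSG3 and SFN) had means between 9.33 and 11.49, in a range of 1.36 to 14.5 for all probe sets. Over genes, arrays of the same hairpin correlated at 0.995 to 0.996, shEZH2 arrays with those of another hairpin at 0.992 to 0.993, and the remaining pairs of different hairpins at 0.993 to 0.996, a range that overlaps that of the same hairpin. Separate cultures are not mentioned in the labels for the arrays of a hairpin, so errors and p-values cover only array-to-array variation, possibly technical in part. An exact two-sided permutation test of 2 arrays against 2 cannot go below p = 0.333. Tests were therefore limma's moderated test across all genes, two-sided, called at a Benjamini-Hochberg adjusted p under 0.05.

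Polycomb proteins hold genes in a silent state by marking histones. BMI1 and RING1B sit together in Polycomb repressive complex 1, where RING1B is the enzyme that ubiquitinates histone H2A and BMI1 helps it to work. BMI1 has close relatives that can take its place beside RING1B, so loss of BMI1 need not equal loss of RING1B. EZH2 is the enzyme of Polycomb repressive complex 2 and methylates histone H3. In mammals both complexes are often found at promoters rich in CG dinucleotides.

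The 5 genes belong to different families. NBEA (neurobeachin, chromosome 13) encodes a large scaffold protein with a BEACH domain that works in membrane traffic and anchors protein kinase A. ZFHX4 encodes a very large transcription factor with zinc fingers and homeodomains. JAM3 (chromosome 11) encodes junctional adhesion molecule C, an immunoglobulin-type receptor at cell contacts. ADIRF (chromosome 10) encodes a small protein that promotes fat cell differentiation, and RASEF (chromosome 9) encodes an atypical Rab GTPase with EF-hand motifs.

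The upstream sequences of NBEA, ADIRF and RASEF are shown for their CG content, since Polycomb complexes are often found at CG-rich promoters. They are the 250 bases before the annotated start in RefSeq (GRCh38.p14), read 5′ to 3′ along the gene, and capitals mark each CG. The windows are chr13:34942020-34942269 and chr13:35476559-35476808 (both plus strand) for the NBEA starts, chr10:86968232-86968481 (plus strand) for ADIRF and chr9:83063143-83063392 (minus strand) for RASEF.
NBEA, upstream start: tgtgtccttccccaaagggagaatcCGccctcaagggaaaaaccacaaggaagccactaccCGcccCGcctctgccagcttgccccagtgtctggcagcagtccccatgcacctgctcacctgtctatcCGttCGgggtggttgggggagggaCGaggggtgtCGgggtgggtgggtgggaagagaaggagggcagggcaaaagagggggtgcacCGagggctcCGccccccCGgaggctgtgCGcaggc
NBEA, downstream start: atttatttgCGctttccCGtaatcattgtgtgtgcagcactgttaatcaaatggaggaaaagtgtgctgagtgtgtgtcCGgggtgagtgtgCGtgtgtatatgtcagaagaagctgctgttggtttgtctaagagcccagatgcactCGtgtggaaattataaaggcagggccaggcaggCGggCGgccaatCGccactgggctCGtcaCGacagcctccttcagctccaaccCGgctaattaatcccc
ADIRF: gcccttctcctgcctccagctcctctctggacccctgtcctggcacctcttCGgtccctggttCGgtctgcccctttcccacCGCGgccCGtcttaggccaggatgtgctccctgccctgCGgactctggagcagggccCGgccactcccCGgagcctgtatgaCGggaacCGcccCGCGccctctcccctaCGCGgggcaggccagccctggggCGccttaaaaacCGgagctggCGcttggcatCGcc
RASEF: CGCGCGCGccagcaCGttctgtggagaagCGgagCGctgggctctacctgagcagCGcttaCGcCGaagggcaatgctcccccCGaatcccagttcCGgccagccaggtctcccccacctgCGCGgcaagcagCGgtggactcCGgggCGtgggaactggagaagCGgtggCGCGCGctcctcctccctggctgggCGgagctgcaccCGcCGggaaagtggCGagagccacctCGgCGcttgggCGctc

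Each NBEA window held 11 CG dinucleotides, the ADIRF window 18 and the RASEF window 28. Over 22197 windows of the same length before starts of protein-coding genes the median was 16, and 96.8% held at least 1 CG, which reads the same on both strands. At least as many as in NBEA were held by 63.4% of these windows, at least as many as in ADIRF by 47.0% and at least as many as in RASEF by 20.0%. Windows were taken for 3 of the 5 genes, and windows on chromosome 8, where ZFHX4 lies, were left out. CG content was therefore not set against the direction of change. Which NBEA start the cells used was not measured, and binding of Polycomb proteins was not measured at any of them.

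Over the 8 arrays the 5 genes fell into 3 patterns. ZFHX4, ADIRF and RASEF stood apart on the shBMI1 arrays alone, with the other 6 arrays close together. NBEA was about as high with shEZH2 as with shBMI1. JAM3 was highest with shBMI1, lowest with shGFP and in between with both other hairpins.

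**Figure D1:**
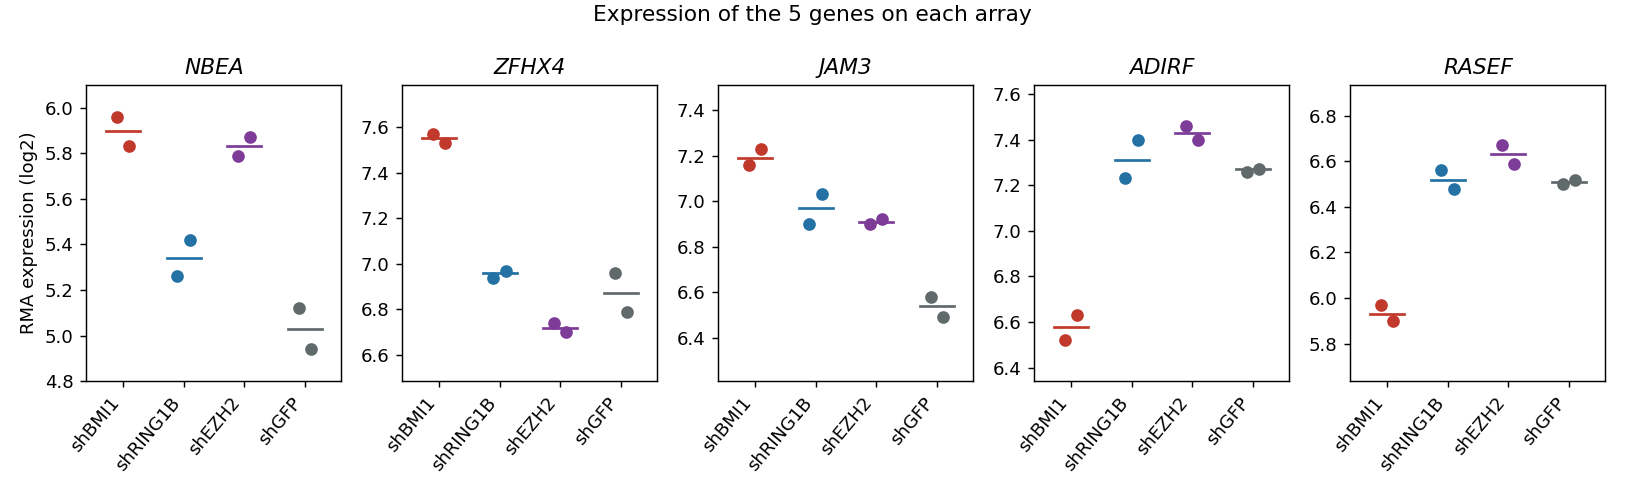
RMA expression (log2, vertical axis) of the 5 genes on each array (points) with the mean of each hairpin group (line, n = 2). Each panel spans the same length of scale but starts at its own level; ZFHX4 sits apart above, and ADIRF and RASEF apart below, on the 2 shBMI1 arrays, while NBEA is also high on the shEZH2 arrays.

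ZFHX4 was read at 7.57 and 7.53 on the shBMI1 arrays, 6.94 and 6.97 on the shRING1B arrays, 6.74 and 6.70 on the shEZH2 arrays and 6.96 and 6.79 on the shGFP arrays. Both shBMI1 arrays lay above the other 6, which spanned 0.27, with a gap of 0.56 to the nearest. The shRING1B and shGFP arrays overlapped. The shBMI1 minus shGFP difference was 0.68 ± 0.09 (SE of the fit), a 1.60-fold higher level.

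ADIRF was read at 6.52 and 6.63 on the shBMI1 arrays, 7.23 and 7.40 on the shRING1B arrays, 7.46 and 7.40 on the shEZH2 arrays and 7.26 and 7.27 on the shGFP arrays. Both shBMI1 arrays lay 0.60 or more below the other 6, which spanned 0.23. Its shBMI1 minus shGFP difference was -0.69 ± 0.09, a 1.61-fold lower level with shBMI1. The shRING1B arrays reached to both sides of the shGFP pair.

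RASEF was read at 5.97 and 5.90 on the shBMI1 arrays, 6.56 and 6.48 on the shRING1B arrays, 6.67 and 6.59 on the shEZH2 arrays and 6.50 and 6.52 on the shGFP arrays. It was again low on the shBMI1 arrays alone, with a gap of 0.51 to the other 6, which spanned 0.19. Its shBMI1 minus shGFP difference was -0.58 ± 0.09, a 1.49-fold lower level. For RASEF too, the shRING1B arrays lay on both sides of the shGFP pair.

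NBEA was read at 5.96 and 5.83 on the shBMI1 arrays, 5.26 and 5.42 on the shRING1B arrays, 5.79 and 5.87 on the shEZH2 arrays and 5.12 and 4.94 on the shGFP arrays. The shBMI1 and shEZH2 arrays overlapped, the shRING1B arrays lay lower and the shGFP arrays lowest. Its shBMI1 minus shGFP difference of 0.87 ± 0.11, a 1.83-fold higher level, was the largest increase of all genes in that contrast. NBEA was the only member among the dimmest 30% of genes by mean, where RMA compresses differences.

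JAM3 was read at 7.16 and 7.23 on the shBMI1 arrays, 6.90 and 7.03 on the shRING1B arrays, 6.90 and 6.92 on the shEZH2 arrays and 6.58 and 6.49 on the shGFP arrays. All 3 knockdown groups lay above the control arrays, and the shRING1B and shEZH2 arrays overlapped. Its shBMI1 minus shGFP difference was 0.66 ± 0.09, a 1.58-fold higher level.

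By the p-value of shBMI1 minus shGFP, NBEA, ZFHX4, ADIRF and JAM3 ranked 1 to 4 of 14884 genes and RASEF ranked 9, and the arrays of both groups were separate for all 5, as they were for 31.8% of all genes. ZIC2, RSPH10B2, CRNDE and HAVCR1P1 held ranks 5 to 8, with differences of 0.85, -0.77, 0.73 and 0.67, and are not members (RSPH10B2, which has a near-identical copy, and CRNDE are named after their values were seen). In that comparison limma called 0 genes (0%) over all genes, with a smallest adjusted p of 0.223, and 830 genes (5.58%) had an unadjusted p under 0.05. The shift that chose the 5 genes is therefore one that passed no test over all genes in this series. For 4 of the 5 genes, all but NBEA, both shBMI1 arrays lay outside the range of the other 6 arrays, which was so for 7.02% of all genes; the shGFP arrays that helped to choose the genes are among those 6.

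**Figure D2:**
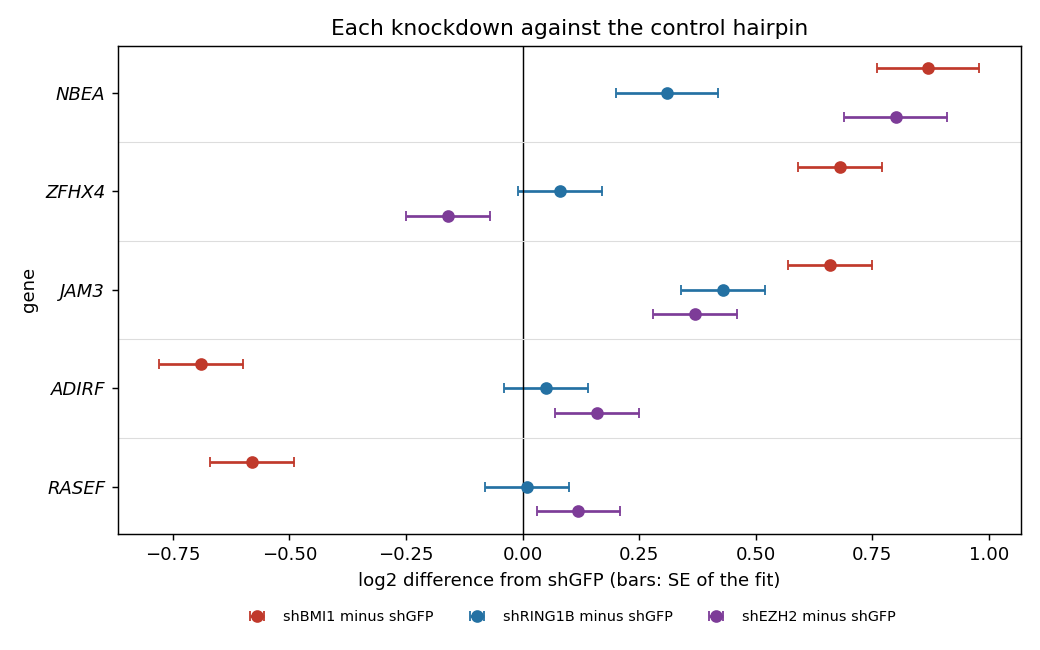
Log2 difference of each knockdown from shGFP (horizontal axis; points, with SE of the fit as bars, n = 2 arrays per group) for the 5 genes. The shBMI1 points chose the genes; the shRING1B points lie at 0.01 to 0.08 for ZFHX4, ADIRF and RASEF, and at 0.31 and 0.43 for NBEA and JAM3.

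Against the control hairpin, shRING1B left ZFHX4, ADIRF and RASEF near the shGFP level and gave positive differences for JAM3 and NBEA that did not pass over all genes. This comparison shares the shGFP arrays with the one that chose the genes, so its values are not independent of that choice. ZFHX4 was at 0.08 ± 0.09 (95% interval -0.13 to 0.29). ADIRF was at 0.05 ± 0.09 (interval -0.17 to 0.26) and RASEF at 0.01 ± 0.09 (interval -0.18 to 0.21). With any 1 array left out these values ranged from -0.01 to 0.17 for ZFHX4, -0.03 to 0.13 for ADIRF and -0.03 to 0.05 for RASEF, so none of them has a settled direction. For these 3 genes the arrays of shRING1B and shGFP were not separate.

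JAM3 had the clearest shRING1B difference of the 5, at 0.43 ± 0.09 (interval 0.23 to 0.64, unadjusted p = 0.00126, adjusted p = 0.275 by limma). NBEA was at 0.31 ± 0.11 (interval 0.07 to 0.56, adjusted p = 0.442). Both had separate arrays in this comparison, as did 37.3% of all genes. With shRING1B, 0 of the 5 genes and 0 of all genes (0%) were called by limma, and 1280 genes (8.60%) had an unadjusted p under 0.05.

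The direct comparison of shBMI1 with shRING1B is the test of whether a shift differs between these 2 hairpin groups. Both hairpins target proteins of Polycomb repressive complex 1, but neither knockdown was checked. In this test 0 of the 5 genes passed over all genes. By limma 2 genes (0.0134%) were called in all, and 1367 genes (9.18%) had an unadjusted p under 0.05. ADIRF was at -0.74 ± 0.09 for shBMI1 minus shRING1B (interval -0.95 to -0.52, adjusted p = 0.102). RASEF was at -0.59 ± 0.09 (interval -0.79 to -0.39, adjusted p = 0.104) and ZFHX4 at 0.60 ± 0.09 (interval 0.39 to 0.81, adjusted p = 0.132). These differences are about as large as those from shGFP. The arrays of shBMI1 and shRING1B were separate for all 5 genes, as they were for 36.4% of all genes.

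The adjusted p-values of the other genes were higher. NBEA was at 0.56 ± 0.11 (adjusted p = 0.242) and JAM3 at 0.23 ± 0.09 (interval 0.02 to 0.43, adjusted p = 0.501). The comparison shares the shBMI1 arrays with the one that chose the genes. The call depended on how the spread was estimated and on which genes were tested. Without the dimmest 30% of genes, ZFHX4, ADIRF and RASEF passed (adjusted p = 0.0419, 0.0324 and 0.0324 by limma). With a trended robust variance ZFHX4 and ADIRF passed (adjusted p = 0.0426 and 0.0159). Other settings went the other way. Without the shEZH2 arrays the limma adjusted p of ZFHX4, ADIRF and RASEF rose to 0.303, 0.241 and 0.28. With only the arrays compared in the fit it rose to 0.455, 0.447 and 0.455.

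**Figure D3:**
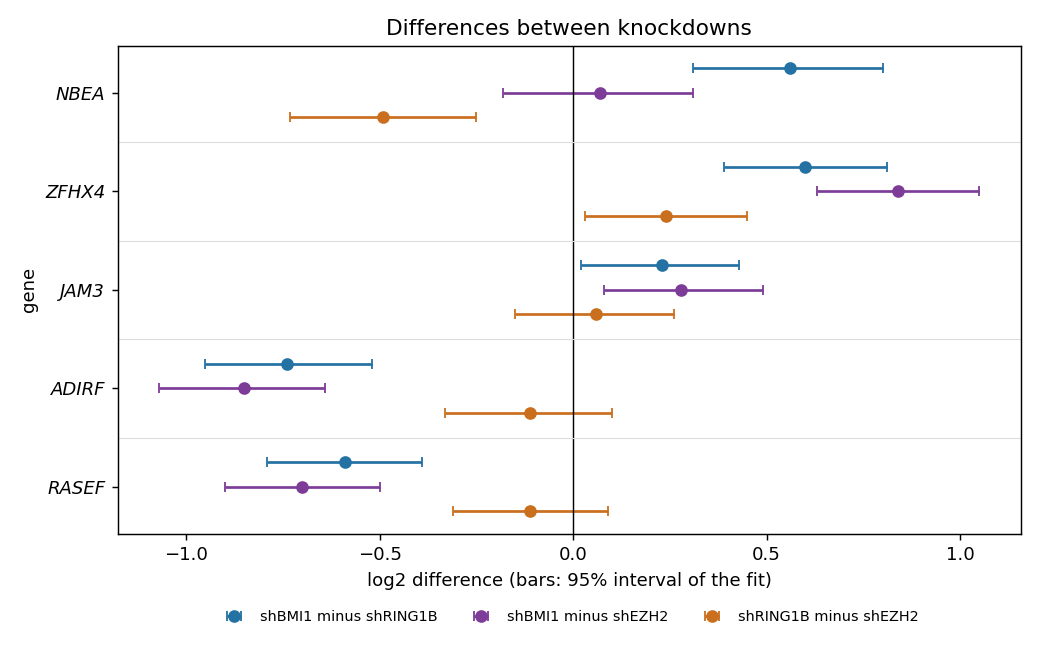
Log2 differences between knockdowns (horizontal axis; points, with 95% intervals of the fit as bars, n = 2 arrays per group) for the 5 genes. For ZFHX4, ADIRF and RASEF both differences that include shBMI1 lie far from 0, at sizes of 0.59 to 0.85, while shRING1B minus shEZH2 lies between -0.11 and 0.24; for NBEA shBMI1 minus shEZH2 is 0.07.

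Against shEZH2, 3 of the 5 genes were called with shBMI1, in a comparison that called 145 genes (0.974%). It shares the shBMI1 arrays with the comparison that chose the genes. The choice favours such calls, so neither the count nor the p-values are independent of it. ZFHX4 was higher with shBMI1 by 0.84 ± 0.09 (interval 0.63 to 1.05, adjusted p = 0.00845 by limma), a 1.79-fold difference. ADIRF was 1.80-fold lower with shBMI1, at -0.85 ± 0.09 (interval -1.07 to -0.64, adjusted p = 0.00845). RASEF was 1.62-fold lower, at -0.70 ± 0.09 (interval -0.90 to -0.50, adjusted p = 0.0122). NBEA did not differ detectably, at 0.07 ± 0.11 with an interval of -0.18 to 0.31, and JAM3 was at 0.28 ± 0.09 (adjusted p = 0.186).

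The number of these calls depended on each array compared. The count of 3 was 0 without shBMI1 replicate 1, without shEZH2 replicate 1 or without shEZH2 replicate 2, and 1 (ADIRF) without shBMI1 replicate 2. RASEF also did not pass with only the 4 arrays of both hairpins in the fit (adjusted p = 0.0584). The sizes moved little, between 0.82 and 0.86 for ZFHX4, -0.91 and -0.80 for ADIRF and -0.74 and -0.66 for RASEF when any array was left out. The shBMI1 arrays are those that chose the genes.

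NBEA rose with shEZH2 against the control hairpin, by 0.80 ± 0.11 (interval 0.56 to 1.04, 1.74-fold, adjusted p = 0.0188 by limma), and was the 1 member called in a comparison that called 109 genes (0.732%). This comparison shares the shGFP arrays with the one that chose the genes. JAM3 was at 0.37 ± 0.09 (interval 0.17 to 0.58, adjusted p = 0.109), close to its value with shRING1B. ADIRF, RASEF and ZFHX4 were at 0.16 ± 0.09, 0.12 ± 0.09 and -0.16 ± 0.09 (adjusted p = 0.432, 0.518 and 0.431). The NBEA call was lost without any 1 of the 4 arrays compared (adjusted p = 0.0819 and 0.119 without shGFP replicate 1 and 2, 0.159 and 0.166 without shEZH2 replicate 1 and 2) and with only those 4 arrays in the fit (adjusted p = 0.0558). JAM3 passed by limma without the dimmest 30% of genes (adjusted p = 0.0453). In that setting NBEA was not among the genes tested, and 409 genes were called in all.

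Only the comparison of shRING1B with shEZH2 uses no array of the contrast that chose the genes. None of the 5 passed there by limma, in a comparison that called 86 genes (0.578%) and gave 2317 genes (15.6%) an unadjusted p under 0.05. NBEA was at -0.49 ± 0.11 for shRING1B minus shEZH2 (interval -0.73 to -0.25, adjusted p = 0.0962), and ZFHX4 was at 0.24 ± 0.09 (adjusted p = 0.267). JAM3 was at 0.06 ± 0.09 with overlapping arrays, and ADIRF and RASEF were both at -0.11 ± 0.09.

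The 5 genes also differed in how closely they followed each other over the 8 arrays. ADIRF and RASEF had a Pearson r of 0.97 (Spearman rho 0.76), and ZFHX4 mirrored them at -0.96 and -0.97. NBEA and JAM3 had an r of 0.82, and NBEA and ZFHX4 one of 0.43. These are descriptions over 8 arrays in 4 groups, and the shBMI1 shift that all 5 genes were chosen for is part of each.

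**Figure D4:**
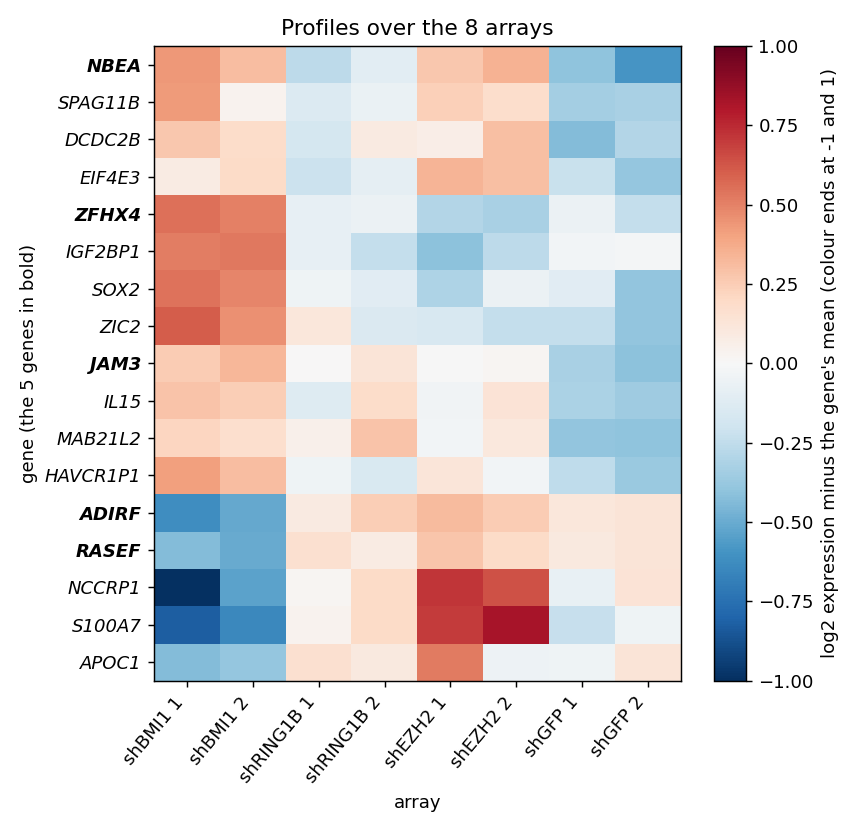
Log2 expression of the 5 genes (bold) and of the genes most like them, minus each gene's mean over the 8 arrays (colour), by array (columns). ZFHX4, IGF2BP1, SOX2 and ZIC2 are high on the shBMI1 arrays, ADIRF, RASEF, NCCRP1, S100A7 and APOC1 are low on them, and NCCRP1 and S100A7 are also high on the shEZH2 arrays.

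Among 769 named genes that varied with an SD of at least 0.25 over the arrays, the 3 most like ZFHX4 were IGF2BP1, an RNA-binding protein of fetal tissue and tumours (r = 0.94, n = 8 arrays), SOX2, a stem cell transcription factor (r = 0.94), and ZIC2, a zinc finger transcription factor of the early nervous system (r = 0.92). By rank the likeness was lower, with a Spearman rho of 0.74, 0.62 and 0.69 in that order. Their shBMI1 minus shGFP differences were 0.55, 0.77 and 0.85. Genes were picked here and below for likeness to a member over these same arrays, so such differences follow in part from the choice. With shRING1B, IGF2BP1, SOX2 and ZIC2 were at -0.14, 0.17 and 0.30, and with shEZH2 at -0.31, 0.07 and 0.12.

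Most like ADIRF, apart from RASEF, were NCCRP1, a protein of squamous epithelia (r = 0.93), and S100A7, the antimicrobial alarmin psoriasin (r = 0.88), with a Spearman rho of 0.98 and 0.90. Most like RASEF, apart from ADIRF, were NCCRP1 (r = 0.89) and the apolipoprotein gene APOC1 (r = 0.88), with a rho of 0.81 and 0.71. NCCRP1 and S100A7 were at -0.84 and -0.60 for shBMI1 minus shGFP. With shEZH2 they were at 0.65 and 0.90, where ADIRF and RASEF were at 0.16 and 0.12.

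Most like JAM3 were the cytokine gene IL15 (r = 0.95), the developmental gene MAB21L2 (r = 0.93) and the pseudogene HAVCR1P1 (r = 0.87), with a rho of 0.95, 0.90 and 0.76. IL15 was at 0.60 with shBMI1, 0.37 with shRING1B and 0.39 with shEZH2 relative to shGFP, beside 0.66, 0.43 and 0.37 for JAM3. Most like NBEA were SPAG11B (r = 0.93), DCDC2B (r = 0.92) and the cap-binding factor gene EIF4E3 (r = 0.92), with a rho of 0.90, 0.93 and 0.79. SPAG11B has a near-identical copy, so its value is uncertain. EIF4E3 was at 0.44 with shBMI1, 0.15 with shRING1B and 0.63 with shEZH2.

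Relatives and partners of the 5 genes were followed from lists, and none of those measured passed in any of the 6 comparisons. Of the other 7 measured BEACH proteins, including LYST and NBEAL2, values for shBMI1 minus shGFP lay between -0.10 and 0.09, beside 0.87 for NBEA. WDR81 was at -0.10 and WDFY4 at 0.09. The median of these 7 was 0.00, and that of all genes -0.01.

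Of the other 12 zinc finger homeobox factors, ZEB1 and ZEB2, repressors of epithelial genes, had the largest shBMI1 minus shGFP differences (median of the 12, 0.05). ZEB1 was at 0.57 ± 0.23, a wide error, and ZEB2 at 0.53 ± 0.09. With shRING1B they were at 0.23 and 0.20, and with shEZH2 at 0.13 and 0.23. ZFHX3 and ZFHX2, of the same ZFHX family as ZFHX4, were at -0.05 and 0.05 with shBMI1.

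Of 7 measured partners and relatives of JAM3, JAM2, which binds JAM3 across cell contacts, was at 0.13 with shBMI1 and the tetraspanin CD9 at -0.16 (median -0.02). With shRING1B all 7 had values of 0.00 or above, up to 0.37 for the polarity protein PARD6B (median 0.14, all genes 0.00). With shEZH2 all 7 were also above 0, between 0.01 and 0.38 (median 0.16, all genes -0.01). Of 10 measured fat cell genes beside ADIRF, the lipase LPL was at 0.53 with shBMI1, between low means of 4.41 with shGFP and 4.94 with shBMI1. The lipid droplet gene PLIN1 was at 0.26 with shBMI1, and PPARG, the master regulator of fat cell formation, at -0.09 (median of the 10, 0.06). Of the relatives of RASEF, CRACR2A and CRACR2B were measured and were at 0.09 and 0.05.

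Among 18 measured genes of a Polycomb list, EZH2 alone was called, and only in the 3 comparisons that include shEZH2. CBX2, a histone-binding subunit, had the largest shBMI1 minus shGFP difference, at 0.19, and CBX6 followed at 0.10. CDKN2A, a well-known target of BMI1 repression and the 1 gene of that list that is not a subunit, was at 0.02.

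Markers of other cell types were compared on the same arrays. The fibroblast markers DCN and LUM, 2 of 6 listed, averaged 5.95 with shBMI1, 5.89 with shRING1B, 6.49 with shEZH2 and 5.58 with shGFP. Of 4 endothelial markers, 3 were measured and averaged 5.99 with shBMI1, 5.95 with shRING1B, 5.76 with shEZH2 and 5.76 with shGFP. The 4 keratinocyte markers averaged 10.19 with shBMI1, 10.04 with shRING1B, 10.29 with shEZH2 and 10.42 with shGFP. Leukocyte markers (2 of 5 measured) averaged 5.20 with shBMI1, 5.37 with shRING1B, 5.52 with shEZH2 and 5.30 with shGFP. Melanocyte markers (3 of 4 measured) averaged 4.97 with shBMI1, 5.02 with shRING1B, 5.18 with shEZH2 and 5.01 with shGFP. Relative to shGFP, the keratinocyte average was thus lower and the average of the 2 fibroblast markers higher with each knockdown. The leukocyte and melanocyte averages were higher with shRING1B and shEZH2 and lower with shBMI1. The endothelial markers were higher with shBMI1 and shRING1B but not with shEZH2. Means of single endothelial markers lay between 5.3 and 6.56, not far from the array medians of 5.49 to 5.52 over all probe sets. The 2 fibroblast markers had means of 4.57 and 7.39, the lower of them below these medians. Means of single leukocyte markers were 4.37 and 6.32, and those of melanocyte markers lay between 4.47 and 6. The part of these shifts in the values of the 5 genes was not tested. All records name the same cell line, SCC13, and the make-up of the cultures was not measured. The averages are therefore not read as shares of cell types. In bulk RNA, the number of cells and the RNA per cell cannot be told apart.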

How the data were processed

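Biotin-labelled RNA from 8 samples was measured on whole-transcript arrays. The authors deposited log2 values, 1 per probe set, and the submitters' processing notes name RMA (which corrects background, normalizes by quantiles and summarises probes) and limma. Versions, probe set definitions and the genome build were not given in the sources used here. Because RMA sets the probe values of every array to the same distribution before summarising them, a shift of most genes would go unseen. Differences of dim probe sets are compressed.

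Of 53617 probe sets, 16098 had 1 symbol, 0 several and 37519 none. Symbols were updated through RefSeq gene IDs, and of a gene's probe sets the one with the highest mean was used. Group means were fitted to all 8 arrays (4 residual degrees of freedom) with limma 3.58.1 in R 4.3.3, and p-values were adjusted over 14884 genes within each comparison. The script was tested on simulated data. The members, lists and comparisons were chosen with earlier results of these data known. Genes most like a member were taken by Pearson r (3 per member), without symbols of keratin-associated, olfactory receptor, antisense, small RNA and uncharacterised genes. Of each list, called genes or else the 2 with the largest shBMI1 difference were named, and LYST, NBEAL2, ZFHX2, ZFHX3, PARD6B, PPARG, CDKN2A, RSPH10B2 and CRNDE were named after their values were seen. The number of arrays limits precision.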

Additional observations from a re-analysis of the deposited data

How the results depend on the processing

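The sizes of the 5 genes' differences moved little under settings other than leaving out an array, but calls depended on the setting. For shBMI1 minus shRING1B, 3 of the 5 genes passed without the dimmest 30% of genes, where fewer genes are tested. With a trended robust variance 2 passed, and 0 passed as reported and under every other setting. For shEZH2 minus shGFP, 0 passed with only the arrays compared, against 1. Without the dimmest 30% of genes the 1 gene called there was JAM3, as NBEA was not tested. Leaving out 1 array, which leaves a lone array assumed to vary like the others, the count lay between 0 and 3 for shBMI1 minus shEZH2, between 0 and 1 for shEZH2 minus shGFP and at 0 for the other tested comparisons. Differences near 0 changed sign when 1 array was left out. They ranged from -0.01 to 0.17 for ZFHX4, -0.03 to 0.13 for ADIRF and -0.03 to 0.05 for RASEF with shRING1B minus shGFP, and from -0.01 to 0.12 for JAM3 with shRING1B minus shEZH2. The shBMI1 minus shGFP difference of ZFHX4 was 0.77 without shGFP replicate 1 and 0.59 without shGFP replicate 2. Replicate numbers are shared by the groups, but the replicate 2 minus replicate 1 differences correlated at only 0.00 to 0.25 between groups, so the numbers were not taken to pair samples. Under a replicate block the count of the 5 genes called was 3 for shBMI1 minus shEZH2, 1 for shEZH2 minus shGFP and 0 for the other tested comparisons, as without it, and the block changed no call of these genes. Over all genes and the settings other than leaving out an array, the number called ranged from 0 to 38 for shBMI1 minus shRING1B (2 as reported), 0 to 36 for shRING1B minus shGFP (0), 57 to 640 for shBMI1 minus shEZH2 (145), 39 to 648 for shEZH2 minus shGFP (109) and 21 to 555 for shRING1B minus shEZH2 (86), and was 0 in each for shBMI1 minus shGFP. Protein-coding genes alone were tried after seeing the data and changed no call of the 5 genes. The cause of these changes was not tested.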
